A study of Mus musculus with 12 samples.

Results

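The 10 genes described here mark microglia, the resident immune cells of the brain, and include the genes of complement C1q. They were chosen as a named list of microglial identity and complement genes: Cx3cr1, P2ry12, Csf1r, Trem2, Tyrobp, Tmem119, Aif1, C1qa, C1qb and C1qc. All 10 were found among the 78334 gene IDs of the table, and all 10 passed the filter on low counts, which kept 25562 genes.

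RNA of the hypothalamus, which regulates feeding and energy balance, was sequenced from male C57BL/6 mice in 12 libraries. Diabetes with curcumin (n = 3), diabetes with aged garlic extract (n = 2) and diabetes (n = 4) shared 1 intraperitoneal injection, on postnatal day 2, of 70 mg/kg streptozotocin, which destroys the insulin-secreting cells of the pancreas. The same groups ate a high-fat diet with 60% of its energy as fat for 8 weeks from 3 weeks of age. Curcumin, a polyphenol of turmeric, was gavaged daily at 50 mg/kg and the garlic extract at 200 mg/kg for 28 days, while diabetes and control animals were gavaged with vehicle. Control (n = 3) had standard diet, and neither streptozotocin nor the high-fat diet is given for it, so the injection and the diet cannot be told apart. The labels start treatment in week 7 of the diet in one place and after 11 weeks in another, so its timing is unresolved. They do not state that libraries stem from different animals, so the p-values rest on a spread between libraries that could be technical in part.

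Library totals ran from 18735948 to 21539173 counts with curcumin, from 18332013 to 21952253 with garlic extract, from 12950017 to 30271706 in diabetes and from 17575625 to 23470800 in control. At the depth of the smallest library, 20917 to 29126 genes would be detected with curcumin, 33125 to 34719 with garlic extract, 20133 to 22515 in diabetes and 25766 to 33157 in control. Some libraries stood apart. Diabetes replicate 4 held 866 CPM of 9 summed pituitary markers, whereas no other library passed 17.5 CPM, and it had the most red blood cell RNA (1755 CPM over 5 globin and related genes). Curcumin replicates 1 and 2 held 748 and 347 CPM of 16 summed hypothalamus markers, with Hcrt and Hmx2 at 0 in replicate 2, and the lowest values of these markers lay at 1170 CPM with garlic extract, 2651 CPM in diabetes and 1754 CPM in control. Control replicate 3 held 1256 CPM of 10 summed astrocyte markers, whereas every other library held at least 2962 CPM. Agrp, the appetite peptide of the arcuate nucleus, was at 0 in all 4 diabetes libraries, in curcumin replicate 1 and in garlic extract replicate 2. Levels here are CPM, the usual measure of counts relative to library size, with library sizes scaled by TMM.

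Microglia survey brain tissue and are kept alive by signalling through the receptor CSF1R. CX3CR1 senses fractalkine, a chemokine displayed by neurons, and P2RY12 senses nucleotides released at sites of injury. TREM2 binds lipids and apolipoproteins and signals through its adaptor TYROBP, also called DAP12. C1q, built from A, B and C chains, starts the classical complement pathway and tags synapses and debris, and in the brain microglia are its main source. In mouse models of neurodegeneration, activated microglia are known to raise Trem2, Tyrobp and Apoe and to lower Cx3cr1 and P2ry12.

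The transcription factor PU.1 is a regulator of microglial genes and binds an ETS core motif that can be written AGGAAGT, and promoters are shown for the members in which this motif was found. A RefSeq table on the GRCm38.p6 build held windows of 6 members, C1qb, C1qc, P2ry12, Cx3cr1, Aif1 and Trem2. The 250 bases before the gene start are printed 5′ to 3′ on the strand of the gene, with the match in capitals. All 3 lie on the minus strand.
C1qb, chr4:136886201-136886450: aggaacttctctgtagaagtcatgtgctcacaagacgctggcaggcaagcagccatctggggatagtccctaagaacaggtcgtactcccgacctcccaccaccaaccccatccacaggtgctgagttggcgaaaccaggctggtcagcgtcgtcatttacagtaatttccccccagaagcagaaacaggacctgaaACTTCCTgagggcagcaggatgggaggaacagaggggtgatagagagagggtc
C1qc, chr4:136892915-136893164: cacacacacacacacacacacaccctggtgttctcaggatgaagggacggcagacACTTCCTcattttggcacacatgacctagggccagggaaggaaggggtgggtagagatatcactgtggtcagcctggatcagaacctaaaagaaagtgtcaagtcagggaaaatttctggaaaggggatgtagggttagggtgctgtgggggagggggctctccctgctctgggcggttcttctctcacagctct
P2ry12, chr3:59262986-59263235: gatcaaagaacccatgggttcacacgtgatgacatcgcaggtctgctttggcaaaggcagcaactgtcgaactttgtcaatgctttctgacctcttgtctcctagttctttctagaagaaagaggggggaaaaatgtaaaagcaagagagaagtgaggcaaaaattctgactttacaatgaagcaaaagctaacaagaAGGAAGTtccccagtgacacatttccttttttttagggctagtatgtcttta
Both strands were searched. The match lay on the opposite strand, read as ACTTCCT, 46 bases before the start of C1qb and 188 bases before the start of C1qc, and on the same strand 45 bases before the start of P2ry12. Thus 3 of 6 member windows held it, as did 7.69% of 32851 promoter windows of the same length. The longer form GAGGAAGT, which overlaps the match in C1qc, was found in C1qc alone and in 2.44% of windows. A match of letters is no evidence of binding, and the motifs were chosen with these sequences in view. The windows of Cx3cr1, Aif1 and Trem2 held no match.

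Per length of the principal transcript, the C1q chains were the most abundant members. On a TPM-like scale (CPM per transcript length, rescaled to a common total), averaged over the 12 libraries, C1qb had 81.6, C1qa 77.9 and C1qc 56.1. Tyrobp followed with 38.0 and Csf1r with 27.1. The lowest levels were those of Trem2 (20.5), Tmem119 (14.0), P2ry12 (13.3), Cx3cr1 (12.6) and Aif1 (9.27). These levels depend on the length chosen, and Trem2 would fall to 5.72 with the length of all its exons joined.

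**Figure D1:**
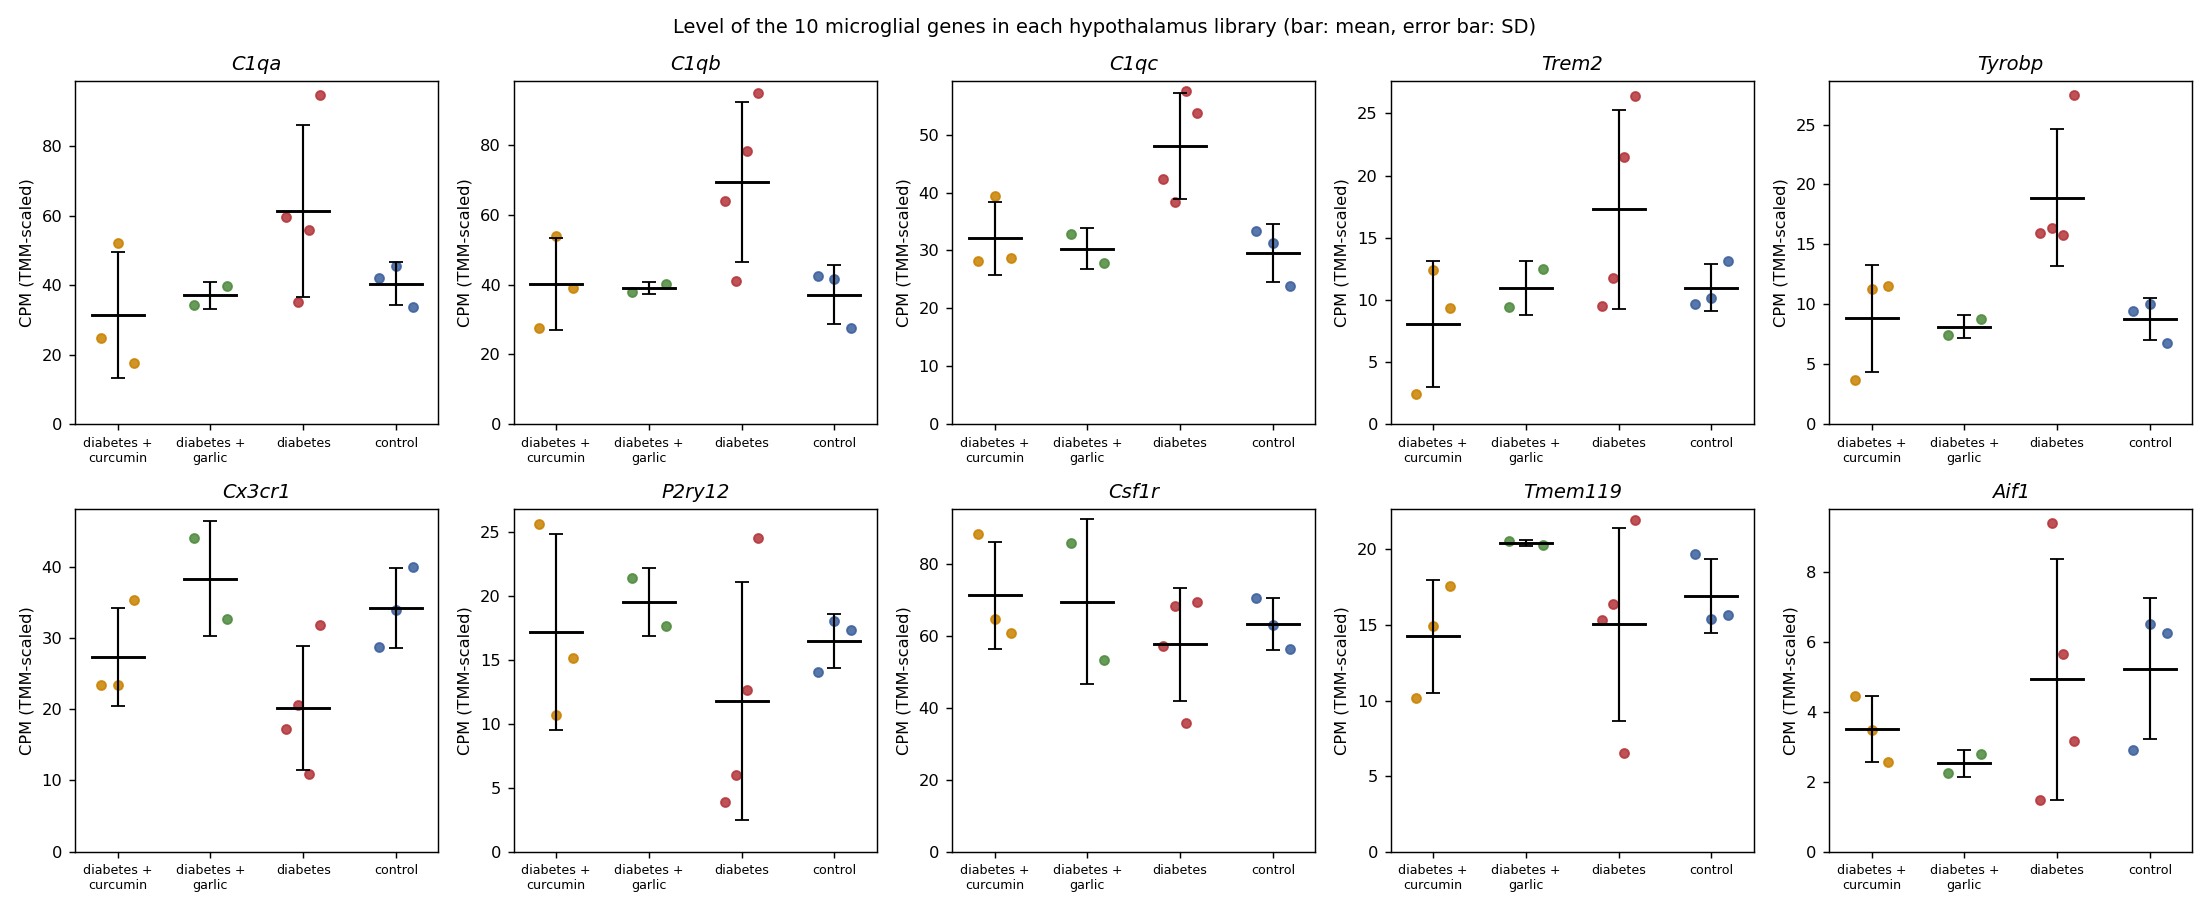
Level of each of the 10 genes (y axis, CPM after TMM scaling) in every library, for diabetes with curcumin (n = 3), diabetes with garlic extract (n = 2), diabetes (n = 4) and control (n = 3). Points are libraries, bars are group means and error bars are SD; all 4 diabetes libraries lie above the control libraries for C1qc and Tyrobp, whereas the groups overlap for the other 8 genes.

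The first question was whether these genes differ in the diabetic hypothalamus. The 3 C1q chains and the pair Trem2 and Tyrobp had higher mean levels in diabetes than in control, by 0.60 to 1.11 on the log2 scale, while Cx3cr1 and P2ry12 had lower ones, by 0.76 and 0.49. None of the 10 passed edgeR's quasi-likelihood test after Benjamini-Hochberg adjustment over all genes (lowest adjusted p = 0.272), and 0.0156% of all genes did. At an unadjusted p under 0.05 there were 4 members, C1qb, C1qc and Tyrobp higher and Cx3cr1 lower, against 12.3% of all genes (4.79% higher and 7.48% lower). Limma-voom called 0 members, and DESeq2 called 1, C1qc (0.76, adjusted p = 0.0259), whose adjusted p in the other settings tried reached 0.654. The median log2 change was 0.26 over the 10 members and -0.07 over all genes tested. In bulk RNA, fewer cells of a type and less RNA per cell cannot be told apart. Markers of brain regions also differed. The 16 hypothalamus markers summed to 2651 to 5255 CPM in diabetes and 1754 to 2467 CPM in control. Of them 11 had higher and 5 lower means (median log2 change 0.16, 2 higher and 1 lower at an unadjusted p under 0.05). Of 12 thalamus and habenula markers, 4 had higher and 8 lower means (median -1.01, 1 higher and 5 lower at that p). Their part in the members' differences was not tested.

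C1qa, the A chain, had 59.6, 35.0, 55.7 and 94.6 CPM in diabetes replicates 1 to 4, against 42.0, 45.5 and 33.5 CPM in control replicates 1 to 3. Diabetes replicate 2 lay inside the control range and the other 3 above it. C1qb, the B chain, had 64.0, 40.9, 78.2 and 95.1 CPM in diabetes, against 42.4, 41.7 and 27.4 CPM in control. Again diabetes replicate 2 was the only diabetes library not above control. C1qc, the C chain, had 42.4, 38.4, 57.6 and 53.8 CPM in diabetes, against 33.3, 31.3 and 23.9 CPM in control, with no overlap.

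The mean level of C1qa was 61.2 ± 24.8 CPM in diabetes (SD, n = 4) and 40.4 ± 6.15 CPM in control (SD, n = 3), a log2 change of 0.60 ± 0.34 (SE; edgeR adjusted p = 0.521). C1qb averaged 69.6 ± 22.9 CPM in diabetes and 37.2 ± 8.44 CPM in control, a log2 change of 0.90 ± 0.29 (edgeR adjusted p = 0.272). C1qc averaged 48.1 ± 9.10 CPM in diabetes and 29.5 ± 4.96 CPM in control, a log2 change of 0.70 ± 0.24 (edgeR adjusted p = 0.304). All 3 differences missed the threshold, and that of C1qa ran from 0.31 without diabetes replicate 4 to 0.79 without diabetes replicate 2 when single libraries were left out. The genes lie next to each other on chromosome 4 in the order C1qb, C1qc, C1qa. The ratio of C1qa to C1qb CPM ran from 0.452 to 1.22 over the 12 libraries (median 0.949), and that of C1qc to C1qb from 0.566 to 1.02 (median 0.744).

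Trem2, the lipid receptor, had 9.47, 11.8, 21.5 and 26.4 CPM in diabetes, against 9.62, 10.2 and 13.1 CPM in control. Only diabetes replicates 3 and 4 lay above the control range. The log2 change was 0.65 ± 0.48 (SE; edgeR adjusted p = 0.687), and with single libraries left out it ran from 0.37 (without diabetes replicate 4) to 0.86 (without diabetes replicate 1). Tyrobp, its adaptor, had 16.0, 16.4, 15.8 and 27.4 CPM in diabetes, against 9.41, 10.1 and 6.75 CPM in control. All 4 diabetes libraries lay above all 3 control libraries, with means of 18.9 ± 5.71 CPM and 8.74 ± 1.75 CPM (SD). Its log2 change of 1.11 ± 0.41 was the largest of the 10 in this comparison (edgeR adjusted p = 0.322). Tyrobp and C1qc were thus the 2 members whose groups did not overlap, both higher, against 5.78% of all genes higher without overlap and 8.94% lower.

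Cx3cr1, the fractalkine receptor, had 17.2, 20.6, 11.0 and 31.8 CPM in diabetes, against 28.7, 33.9 and 39.9 CPM in control. Diabetes replicates 1 to 3 lay below every control library and replicate 4 inside their range. Cx3cr1 averaged 20.1 ± 8.73 CPM in diabetes (SD, n = 4) and 34.2 ± 5.60 CPM in control (SD, n = 3), a log2 change of -0.76 ± 0.31 (SE; edgeR adjusted p = 0.347) that ran from -1.07 without diabetes replicate 4 to -0.56 without diabetes replicate 3. P2ry12, the nucleotide receptor, had 3.92, 5.97, 12.6 and 24.6 CPM in diabetes, against 14.1, 18.1 and 17.3 CPM in control. Diabetes replicate 4 held more P2ry12 than any control library and the other 3 held less. The log2 change was -0.49 ± 0.48 (SE; edgeR adjusted p = 0.83), and with single libraries left out it ran from -1.15 (without diabetes replicate 4) to -0.20 (without diabetes replicate 1).

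Csf1r, the survival receptor, averaged 57.7 ± 15.6 CPM in diabetes and 63.3 ± 7.23 CPM in control, a log2 change of -0.13 ± 0.26 (SE; edgeR adjusted p = 0.964). Its libraries ran from 35.8 to 69.4 CPM in diabetes and from 56.3 to 70.7 CPM in control. Tmem119, a membrane protein used to tell microglia from blood-derived macrophages, had 6.53 to 21.9 CPM in diabetes and 15.4 to 19.7 CPM in control, a log2 change of -0.17 ± 0.36 (SE; edgeR adjusted p = 0.970). Aif1, which encodes the calcium-binding marker IBA1, had 1.48 to 9.41 CPM in diabetes and 2.91 to 6.52 CPM in control, a log2 change of -0.09 ± 0.67 (SE; edgeR adjusted p = 0.995). For these 3 genes the groups overlapped throughout. Reads of Cx3cr1, P2ry12 and Csf1r are uncertain, since their exons overlap Gm33858, Med12l and Hmgxb3 on the opposite strand and the strand setting of the counting is not given.

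The SD of CPM was larger over the diabetes libraries than over the control libraries for all 10 members. Diabetes replicate 4 was the highest of the 12 libraries for 5 members, C1qa, C1qb, Trem2, Tyrobp and Tmem119. Diabetes replicate 3 was the lowest for 3, Cx3cr1, Csf1r and Tmem119, and the highest for C1qc.

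**Figure D2:**
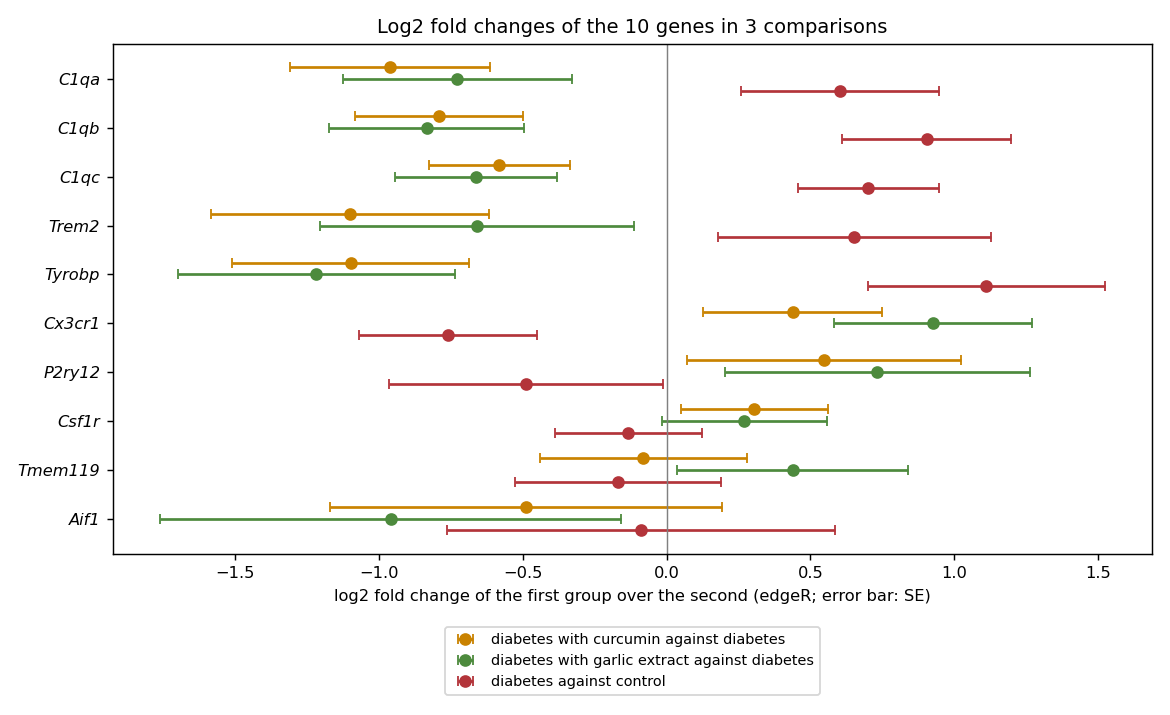
Log2 fold changes (x axis, edgeR, all 12 libraries in 1 fit) of each gene (y axis) with curcumin against diabetes, with garlic extract against diabetes and in diabetes against control; error bars are SE. The C1q chains, Trem2 and Tyrobp lie between -0.58 and -1.22 under both treatments and between 0.60 and 1.11 in diabetes, with no gene past the adjusted threshold, and all 3 comparisons use the same 4 diabetes libraries.

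The next comparison asks whether curcumin alters these genes in diabetic animals. It uses the same 4 diabetes libraries as the comparison with control, so a high or low diabetes library enters both with opposite sign. With curcumin, the C1q chains, Trem2 and Tyrobp had lower mean levels than in diabetes, by log2 changes of -0.58 to -1.10, and Cx3cr1, P2ry12 and Csf1r had higher ones. None of the 10 passed the edgeR test after adjustment (lowest adjusted p = 0.187), and 0.0900% of all genes did (0.00391% higher and 0.0861% lower). At an unadjusted p under 0.05 there were 5 members, all lower (C1qa, C1qb, C1qc, Trem2 and Tyrobp), against 17.2% of all genes (10.5% higher and 6.71% lower). DESeq2 and limma-voom each called 0 members. The median log2 change was -0.54 over the members and 0.07 over all genes tested. Markers of other cells also differed between these groups: 15 of 16 hypothalamus markers had lower means with curcumin than in diabetes (median log2 change -1.16, 6 lower and 1 higher at an unadjusted p under 0.05), and 10 of 10 endothelial markers had higher ones (median 1.12, 5 at an unadjusted p under 0.05). The hypothalamus markers summed to 748, 347 and 1809 CPM in curcumin replicates 1 to 3, all below the 2651 to 5255 CPM in diabetes. The endothelial markers summed to 256, 482 and 152 CPM in curcumin replicates 1 to 3, against 80.1 to 235 CPM in diabetes. Of 12 thalamus and habenula markers, 8 had higher and 4 lower means with curcumin than in diabetes (median 0.85, 4 higher and 2 lower at that p). These 12 summed to 352 to 810 CPM with curcumin and 570 to 865 CPM in diabetes. No gene of these lists passed after adjustment, and their part in the members' differences was not tested.

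C1qa had 24.7, 52.0 and 17.7 CPM in curcumin replicates 1 to 3, against 59.6, 35.0, 55.7 and 94.6 CPM in diabetes. Curcumin replicates 1 and 3 lay below every diabetes library, and replicate 2 lay among them. The log2 change of C1qa was -0.96 ± 0.35 (SE; edgeR adjusted p = 0.187). Without curcumin replicate 2, C1qa passed the test and was lower by a log2 change of -1.49 (edgeR adjusted p = 0.0109), and so did C1qb at -1.02 (adjusted p = 0.0484). That omission also raised the calls over all genes from 23 to 1975. Without diabetes replicate 4 the change of C1qa was -0.67. Over all the other settings and omissions tried, the adjusted p of C1qa reached 0.491.

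C1qb had 27.5, 53.9 and 39.1 CPM with curcumin, against 64.0, 40.9, 78.2 and 95.1 CPM in diabetes, a log2 change of -0.79 ± 0.29 (SE; edgeR adjusted p = 0.193). C1qc had 28.2, 39.4 and 28.7 CPM with curcumin, against 42.4, 38.4, 57.6 and 53.8 CPM in diabetes, a log2 change of -0.58 ± 0.24 (SE; edgeR adjusted p = 0.237). For both chains curcumin replicate 2 overlapped the diabetes libraries and the other curcumin libraries lay below them all. Trem2 had 2.41, 12.4 and 9.37 CPM with curcumin, against 9.47, 11.8, 21.5 and 26.4 CPM in diabetes, a log2 change of -1.10 ± 0.48 (SE; edgeR adjusted p = 0.256). Tyrobp had 3.64, 11.3 and 11.5 CPM with curcumin, against 16.0, 16.4, 15.8 and 27.4 CPM in diabetes, a log2 change of -1.10 ± 0.41 (SE; edgeR adjusted p = 0.199). Without curcumin replicate 1, these changes were -0.67 for Trem2 and -0.73 for Tyrobp. Tyrobp was the only member whose groups did not overlap, against 4.19% of all genes lower and 5.43% higher without overlap. Curcumin replicate 1 held the lowest Trem2 and Tyrobp of the 12 libraries and the highest P2ry12 and Csf1r.

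Cx3cr1 had 23.4, 23.3 and 35.3 CPM with curcumin, against 17.2, 20.6, 11.0 and 31.8 CPM in diabetes, a log2 change of 0.44 ± 0.31 (SE; edgeR adjusted p = 0.525). P2ry12 had 25.7, 10.7 and 15.2 CPM with curcumin, against 3.92, 5.97, 12.6 and 24.6 CPM in diabetes, a log2 change of 0.55 ± 0.48 (SE; edgeR adjusted p = 0.631). The groups overlapped for both. With single libraries left out, the change of Cx3cr1 ran from 0.21 (without curcumin replicate 3) to 0.75 (without diabetes replicate 4), and that of P2ry12 from 0.14 (without curcumin replicate 1) to 1.21 (without diabetes replicate 4). Csf1r averaged 71.3 ± 15.0 CPM with curcumin and 57.7 ± 15.6 CPM in diabetes (0.30 ± 0.26 in log2; edgeR adjusted p = 0.614). Tmem119 averaged 14.2 ± 3.76 CPM with curcumin and 15.0 ± 6.37 CPM in diabetes (-0.08 ± 0.36; edgeR adjusted p = 0.953). Aif1 averaged 3.50 ± 0.937 CPM with curcumin and 4.93 ± 3.44 CPM in diabetes (-0.49 ± 0.68; edgeR adjusted p = 0.802). These 3 differences lay within the spread between libraries.

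Aged garlic extract, given to the other treated group, was compared with the same 4 diabetes libraries. With 2 libraries, C1q chains, Trem2 and Tyrobp again had lower means than in diabetes (log2 changes of -0.66 to -1.22), and Cx3cr1 and P2ry12 had higher ones (0.93 and 0.73). None of the 10 passed the edgeR test after adjustment (lowest adjusted p = 0.382), nor did any other gene (0%), and DESeq2 and limma-voom called 0 members. At an unadjusted p under 0.05 there were 4, C1qb, C1qc and Tyrobp lower and Cx3cr1 higher, against 10.9% of all genes (6.90% higher and 4.03% lower). The median log2 change was -0.66 over the members and 0.07 over all genes tested. Markers of other cells and regions differed here too. Of 16 hypothalamus markers, 4 had higher and 12 lower means than in diabetes (median -0.53, 1 higher and 2 lower at that unadjusted p). Of 10 endothelial markers, 8 had higher and 2 lower means (median 0.62, 2 higher and 0 lower). Of 12 thalamus and habenula markers, 9 had higher and 3 lower means (median 0.29, 0 higher and 2 lower). Their part in the members' differences was not tested.

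C1qa had 34.3 and 39.6 CPM with garlic extract, against 59.6, 35.0, 55.7 and 94.6 CPM in diabetes (-0.73 ± 0.40, SE; edgeR adjusted p = 0.558). C1qb had 37.8 and 40.2 CPM with garlic extract, against 64.0, 40.9, 78.2 and 95.1 CPM in diabetes (-0.83 ± 0.34; edgeR adjusted p = 0.400). C1qc had 32.8 and 27.8 CPM with garlic extract, against 42.4, 38.4, 57.6 and 53.8 CPM in diabetes (-0.66 ± 0.28; edgeR adjusted p = 0.414). C1qb and C1qc did not overlap, though the gap of C1qb to diabetes replicate 2 was under 1 CPM, and C1qa overlapped that replicate. Tyrobp had 7.44 and 8.79 CPM with garlic extract, against 16.0, 16.4, 15.8 and 27.4 CPM in diabetes (-1.22 ± 0.48; edgeR adjusted p = 0.393). Trem2 had 9.39 and 12.5 CPM with garlic extract, against 9.47, 11.8, 21.5 and 26.4 CPM in diabetes (-0.66 ± 0.55; edgeR adjusted p = 0.837). Without diabetes replicate 4 the change was -0.38 for Trem2 and -0.44 for C1qa. Tyrobp did not overlap and Trem2 did, so 3 members were lower without overlap, against 7.52% of all genes.

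Cx3cr1 had 44.0 and 32.6 CPM with garlic extract, against 17.2, 20.6, 11.0 and 31.8 CPM in diabetes (0.93 ± 0.34, SE; edgeR adjusted p = 0.382). It was the 1 member higher without overlap, against 13.2% of all genes. P2ry12 had 21.4 and 17.6 CPM with garlic extract, against 3.92, 5.97, 12.6 and 24.6 CPM in diabetes (0.73 ± 0.53; edgeR adjusted p = 0.754), a change that ran from 0.44 without diabetes replicate 1 to 1.39 without diabetes replicate 4. Csf1r averaged 69.6 ± 23.0 CPM with garlic extract and 57.7 ± 15.6 CPM in diabetes (0.27 ± 0.29; edgeR adjusted p = 0.935). Tmem119 averaged 20.4 ± 0.204 CPM with garlic extract and 15.0 ± 6.37 CPM in diabetes (0.44 ± 0.40; edgeR adjusted p = 0.883). Aif1 averaged 2.53 ± 0.375 CPM with garlic extract and 4.93 ± 3.44 CPM in diabetes (-0.96 ± 0.80; edgeR adjusted p = 0.841). These last 3 overlapped the diabetes libraries.

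The treated groups were also set against control. With curcumin the log2 changes against control ran from -0.58 for Aif1 to 0.17 for Csf1r, with C1qa at -0.36, C1qb at 0.11, C1qc at 0.12 and Tyrobp at 0.01. No member passed (adjusted p = 1 for each), 0% of all genes did, and no member reached an unadjusted p under 0.05, against 2.34% of all genes (1.06% higher and 1.28% lower). DESeq2 and limma-voom called 0 members, and all 10 overlapped, while 2.82% of all genes were higher and 5.84% lower without overlap. With garlic extract they ran from -1.05 for Aif1 to 0.27 for Tmem119, and no member passed by edgeR (adjusted p = 1), DESeq2 or limma-voom, against 0% of all genes by edgeR. No member reached an unadjusted p under 0.05 there, and 0.110% of all genes did (0.0782% higher and 0.0313% lower). Aif1, at 2.26 and 2.79 CPM with garlic extract, against 2.91, 6.52 and 6.26 CPM in control, was lower without overlap, as were 6.11% of all genes. Tmem119, at 20.6 and 20.3 CPM with garlic extract, against 19.7, 15.4 and 15.7 CPM in control, was higher without overlap, as were 6.65% of all genes. A p above the threshold does not show that the groups are alike.

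Within a library, ratios between members do not depend on library size. The C1q counts summed, divided by the summed counts of Cx3cr1, P2ry12, Csf1r and Tmem119, gave 0.544, 1.28 and 0.664 with curcumin, 0.611 and 0.869 with garlic extract, 1.77, 1.03, 2.91 and 1.65 in diabetes and 0.884, 0.910 and 0.657 in control. All 4 diabetes libraries lay above every control and garlic extract library, and curcumin replicate 2 lay above diabetes replicate 2. The means were 0.83 ± 0.39 with curcumin, 0.740 ± 0.182 with garlic extract, 1.84 ± 0.784 in diabetes and 0.817 ± 0.139 in control (SD). The same ratio for Trem2 with Tyrobp was 0.0410, 0.208 and 0.162 with curcumin, 0.0980 and 0.172 with garlic extract, 0.272, 0.253, 0.565 and 0.365 in diabetes and 0.143, 0.155 and 0.154 in control. Here the diabetes libraries lay above all the others. The genes were grouped after their values were seen, so the ratios are a description with no test. The genes on top have transcripts of 564 to 1203 bases and those below 2242 to 4701 bases, and Aif1 (875 bases) is in neither. Changes over all genes moved with transcript length, as given next, and the part of length in these ratios was not tested. As said above, reads of Cx3cr1, P2ry12 and Csf1r are uncertain for strand.

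**Figure D3:**
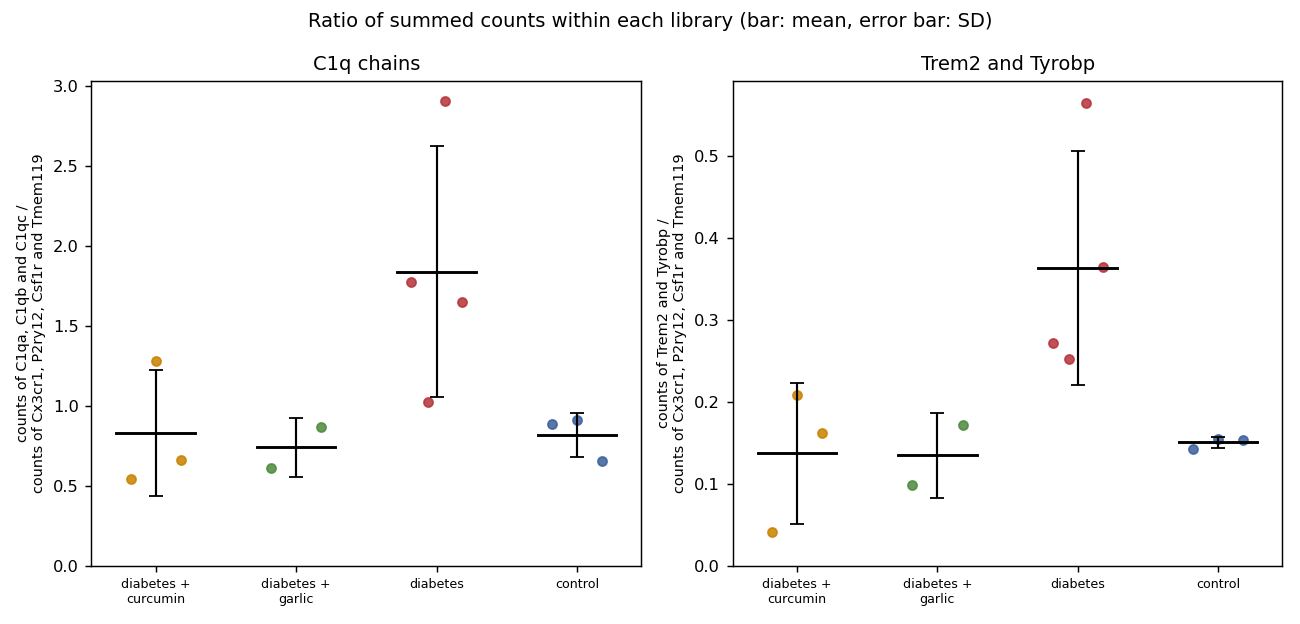
Summed counts of the C1q chains (left) and of Trem2 and Tyrobp (right), each divided by the summed counts of Cx3cr1, P2ry12, Csf1r and Tmem119 in the same library (y axis, ratio), for diabetes with curcumin, diabetes with garlic extract, diabetes and control. The genes on top have shorter transcripts than those they are divided by. Points are libraries, bars are means and error bars are SD; the diabetes libraries span 1.03 to 2.91 on the left and 0.253 to 0.565 on the right, whereas control spans 0.657 to 0.910 and 0.143 to 0.155.

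Transcript length moved with these changes over all genes. The members higher in diabetes have short transcripts, 564 bases for Tyrobp, 1040 for C1qa, 1088 for C1qb and for Trem2 and 1203 for C1qc, while Cx3cr1 has 4493, Csf1r 4701, P2ry12 2344 and Tmem119 2242. Aif1 is short too, at 875 bases, and its mean was not higher in diabetes. Among genes that averaged at least 1 CPM, the median log2 change in diabetes against control was 0.46 for 2023 genes under 1000 bases, 0.26 for 3506 genes of 1000 to 2000 bases and -0.36 for 2959 genes over 5000 bases. For curcumin against diabetes the medians of these classes were -0.67, -0.31 and 0.46, and for garlic extract against diabetes -0.48, -0.30 and 0.39. Against control, the medians of the 6 classes ran from -0.14 to 0.09 with curcumin and from -0.04 to 0.02 with garlic extract.

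When the trend with length was removed from each library, a step added after seeing the data, the log2 change in diabetes against control was 0.43 for C1qa, 0.74 for C1qb, 0.57 for C1qc, 0.48 for Trem2 and 0.86 for Tyrobp. Cx3cr1 stood at -0.45, P2ry12 at -0.38 and Csf1r at 0.21, with its sign turned. For curcumin against diabetes, C1qa stood at -0.55, C1qb at -0.38, C1qc at -0.18, Trem2 at -0.77, Tyrobp at -0.52 and Cx3cr1 at 0.15. For garlic extract against diabetes, C1qa stood at -0.54, C1qb at -0.65, C1qc at -0.50, Trem2 at -0.47, Tyrobp at -0.99 and Cx3cr1 at 0.56. Under this correction 0 of 10 members passed in any comparison. The part of length in the members' differences was not tested otherwise.

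**Figure D4:**
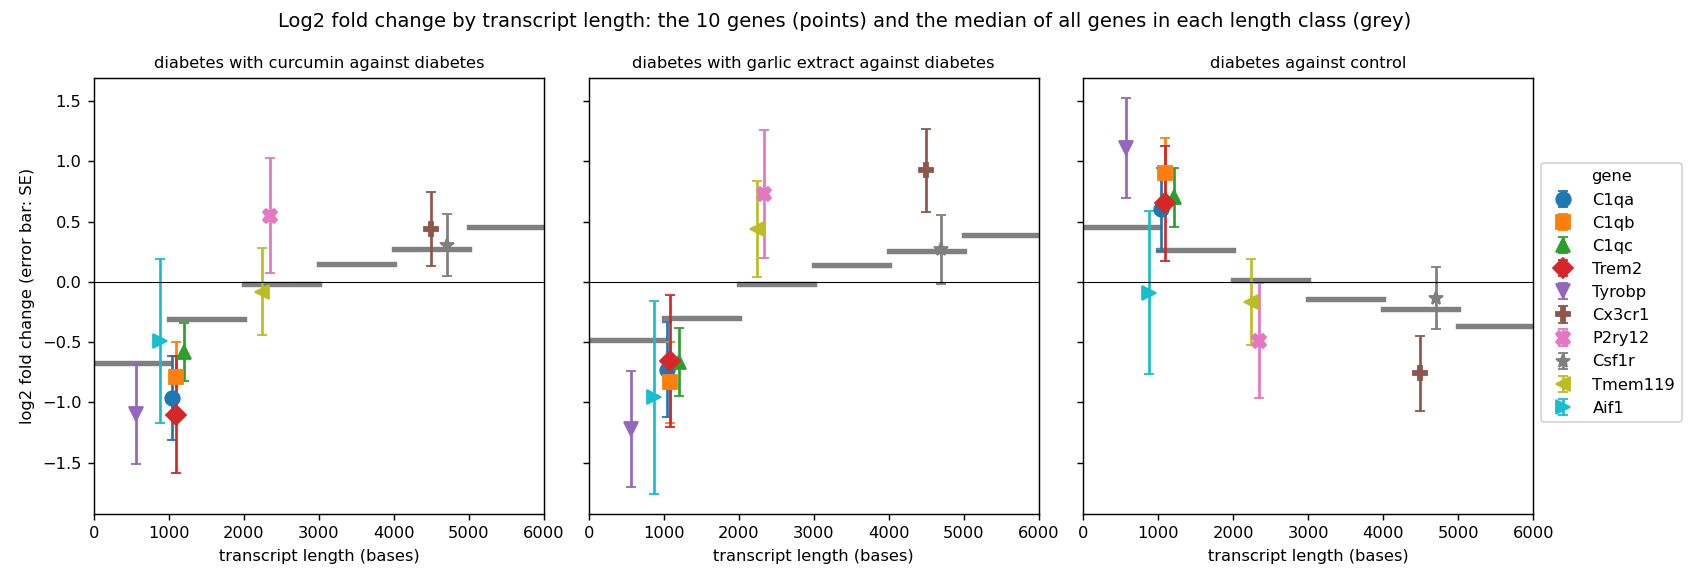
Log2 fold change (y axis, error bars are SE) of the 10 genes against the length of their principal transcript (x axis, bases) in 3 comparisons; grey bars are the median of all genes averaging at least 1 CPM in each length class. The grey bars run from -0.67 to 0.46 with curcumin against diabetes, from -0.48 to 0.39 with garlic extract against diabetes and from 0.46 to -0.36 in diabetes against control, and the C1q chains, Trem2 and Tyrobp lie beyond the bar of their class on the same side of 0 in all 3.

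Genes of the same pathways were taken from lists, and none passed the edgeR test in any comparison. Over all genes tested, 45.9% had a higher mean in diabetes than in control, with 4.79% higher and 7.48% lower at an unadjusted p under 0.05. With curcumin against diabetes 53.1% were higher, with 10.5% higher and 6.71% lower at that p, and with garlic extract against diabetes 53.7%, with 6.90% and 4.03%. The median of all genes was -0.07 for diabetes against control and 0.07 for each treatment against diabetes. Of 26 other homeostatic microglia genes, 13 had higher and 13 lower means in diabetes than in control, with 0 and 2 at an unadjusted p under 0.05 and a median log2 change of 0.05. Ctss, the lysosomal protease cathepsin S, averaged 64.0 ± 8.95 CPM in diabetes and 49.7 ± 4.83 CPM in control without overlap (0.37 ± 0.20, SE; edgeR adjusted p = 0.498). Itgb5, an integrin subunit, averaged 58.3 ± 16.0 CPM in diabetes and 40.6 ± 19.7 CPM in control (0.52 ± 0.31; edgeR adjusted p = 0.550). In control replicates 1 to 3 it had 52.0, 51.8 and 17.8 CPM. The 26 genes summed to 373 to 423 CPM with curcumin, 367 to 425 CPM with garlic extract, 314 to 498 CPM in diabetes and 315 to 397 CPM in control, so the groups overlapped. For curcumin against diabetes 11 were higher and 15 lower (median -0.07), and for garlic extract against diabetes 14 and 12 (median 0.05).

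Among 11 ligands and partners of the member receptors, 5 had higher and 6 lower means in diabetes than in control (median -0.01), and 1, Apoe, had an unadjusted p under 0.05. Apoe, a lipid carrier bound by TREM2 and made largely by astrocytes, had 5511, 3882, 8081 and 5867 CPM in diabetes, against 2670, 2753 and 974 CPM in control. The groups did not overlap, and the log2 change was 1.45 ± 0.37 (SE; edgeR adjusted p = 0.151). With curcumin Apoe had 1704, 3778 and 2067 CPM (-1.21 ± 0.37 against diabetes; edgeR adjusted p = 0.134), and with garlic extract 2095 and 2314 CPM (-1.40 ± 0.43; edgeR adjusted p = 0.280), both below all diabetes libraries. Control replicate 3, which had the least Apoe, also had the lowest summed astrocyte markers (1256 CPM), whereas the other 11 libraries held 2962 to 4536 CPM. Cx3cl1, the ligand of CX3CR1, averaged 276 ± 41.3 CPM in diabetes and 277 ± 48.8 CPM in control (-0.01 ± 0.23; edgeR adjusted p = 0.999). Il34, a ligand of CSF1R, averaged 39.1 ± 8.02 CPM in diabetes and 30.5 ± 1.58 CPM in control (0.36 ± 0.24; edgeR adjusted p = 0.623).

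Of 25 genes known to be raised in disease-associated microglia, Apoe among them, 22 were tested. Of these, 15 had higher and 7 lower means in diabetes than in control (median 0.30). At an unadjusted p under 0.05 there were 6 higher, Apoe, Cd9, Ctsd, Ctsl, Cd63 and B2m, and 0 lower. The 7 with lower means were Lpl, Gpnmb, Csf1, Cd68, Tlr2, Igf1 and Timp2. Those not tested were Cst7, Itgax and Clec7a. Itgax and Clec7a were at 0 in all diabetes libraries, and Cst7 in diabetes replicates 2 to 4. In control, Cst7 was at 0 in replicate 3 and Clec7a in replicate 2. No garlic extract library had any of them at 0. With curcumin, Cst7 was at 0 in all libraries, and Itgax and Clec7a were at 0 in replicates 1 and 3. These genes were named after their values were seen. At the depth of the smallest library, 20133 to 22515 genes would be detected in diabetes and 20917 to 29126 with curcumin. The ranges were 33125 to 34719 with garlic extract and 25766 to 33157 in control. The part of detection in these zeros was not tested. With curcumin against diabetes, 11 of the 22 were higher and 11 lower (0 and 4 at an unadjusted p under 0.05, median -0.08). With garlic extract 7 were higher and 15 lower (0 and 3, median -0.50). Ctsb, the protease cathepsin B, averaged 668 ± 88.0 CPM in diabetes and 579 ± 94.1 CPM in control, and Fth1, the ferritin heavy chain, averaged 1559 ± 240 CPM in diabetes and 1131 ± 301 CPM in control. Neither passed (0.21 ± 0.23, edgeR adjusted p = 0.872, and 0.46 ± 0.29, adjusted p = 0.595).

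Of 38 other complement genes, 30 were tested, and 11 had higher and 19 lower means in diabetes than in control (1 and 4 at an unadjusted p under 0.05, median -0.19). Clu, an inhibitor of the terminal complex made by astrocytes, averaged 1183 ± 133 CPM in diabetes and 781 ± 374 CPM in control (0.60 ± 0.29; edgeR adjusted p = 0.419). It had 885, 1092 and 366 CPM in control replicates 1 to 3, and replicate 3 had the lowest summed astrocyte markers. Sez6l2 averaged 428 ± 61.7 CPM in diabetes and 423 ± 111 CPM in control (0.02 ± 0.23; edgeR adjusted p = 0.997), and Sez6l averaged 216 ± 46.0 CPM in diabetes and 272 ± 60.5 CPM in control (-0.33 ± 0.32; edgeR adjusted p = 0.83). The 1 gene higher at an unadjusted p under 0.05 was Vtn (0.98 ± 0.39; edgeR adjusted p = 0.341), and the 4 lower were Cd46 (-1.14 ± 0.47; adjusted p = 0.349), Csmd1 (-0.81 ± 0.35; adjusted p = 0.372), C5ar1 and C1s1. C5ar1 and C1s1 were at 0 in all diabetes libraries and averaged 0.573 and 0.189 CPM in control. C1s1 was also at 0 in control replicate 2 and garlic extract replicate 2. These 5 were named after their values were seen. Fewer genes were also detected over all in diabetes (20133 to 22515) than in control (25766 to 33157), and the part of detection in these counts was not tested. With curcumin against diabetes the median of these 30 genes was 0.02, and with garlic extract 0.03.

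Of 20 inflammatory mediators, 14 were tested, 7 with higher and 7 with lower means in diabetes than in control (1 and 4 at an unadjusted p under 0.05, median -0.02). Il18, a cytokine matured by the inflammasome, had 29.8, 21.1, 29.2 and 22.5 CPM in diabetes, against 15.7, 11.6 and 13.2 CPM in control, without overlap (0.92 ± 0.30; edgeR adjusted p = 0.275). It had 12.0, 20.4 and 12.1 CPM with curcumin (-0.79 ± 0.30 against diabetes; edgeR adjusted p = 0.204), below every diabetes library, and 18.9 and 25.6 CPM with garlic extract (-0.20 ± 0.34; edgeR adjusted p = 1), which overlapped them. Myd88, an adaptor of Toll-like receptors, averaged 6.54 ± 2.81 CPM in diabetes and 5.03 ± 1.63 CPM in control (0.38 ± 0.56; edgeR adjusted p = 0.936), and the cytokine gene Tgfb1 averaged 4.92 ± 3.96 CPM in diabetes and 4.58 ± 0.469 CPM in control (0.10 ± 0.97; edgeR adjusted p = 0.996). The median of the 14 was -0.003 with curcumin and 0.77 with garlic extract against diabetes. The 4 lower at that p in diabetes against control were Il1a, Nlrp3, Ccl3 and Nos2, at 0 in all diabetes libraries. They averaged 0.365, 0.539, 0.284 and 0.658 CPM in control and were named after their values were seen. Of the 20 genes, 6 to 7 had a count in diabetes libraries, against 17 and 19 with garlic extract. With curcumin 7, 17 and 7 had a count (replicates 1 to 3), and in control 19, 11 and 16. More genes were also detected over all with garlic extract (33125 to 34719) than in diabetes (20133 to 22515). The part of detection in these medians was not tested.

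Other cells that express some of these genes were checked through their markers. The 10 markers of border macrophages, such as Mrc1 and Cd163, summed to 4.72 to 8.13 CPM with curcumin, 4.39 to 6.27 CPM with garlic extract, 0 to 19.5 CPM in diabetes and 2.09 to 6.46 CPM in control. The 14 blood leukocyte markers summed to 0.142 to 2.78 CPM with curcumin, 1.28 to 3.11 CPM with garlic extract, 0 to 10.5 CPM in diabetes and 1.22 to 7.13 CPM in control. Diabetes replicate 3, the smallest library and the one with the fewest genes detected, had all 24 of these markers at 0. Both lists are near the floor in control too, so zeros in so small a library do not show that such cells were absent. Diabetes replicate 4, the highest in both lists, had the most C1qa, C1qb, Trem2 and Tyrobp, and the part of its macrophage, blood and pituitary RNA in those levels was not tested. The 5 red blood cell markers summed to 122 to 504 CPM with curcumin, 115 to 154 CPM with garlic extract, 264 to 1755 CPM in diabetes and 87.5 to 196 CPM in control, all 4 diabetes libraries being above control. The 10 neuron markers summed to 3991 to 5323 CPM with curcumin, 4116 to 5079 CPM with garlic extract, 3480 to 3703 CPM in diabetes and 4365 to 4704 CPM in control, all 4 diabetes libraries being the lowest. The part of either in the members' differences was not tested.

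The members did not follow 1 common course over the 12 libraries. The Pearson correlation of a member's log2 CPM with the mean of the other 9 ran from -0.22 for Aif1 to 0.60 for Trem2. The 8 genes outside the list whose log2 CPM was most like the mean of the standardised members, among 13789 genes, were Laptm4a (r = 0.89), Spsb2 (r = 0.89), Ttc30a1 (r = 0.87), Pxdc1 (r = 0.86), Rras2 (r = 0.86), Hspb8 (r = 0.85), Lyz2 (r = 0.84) and Fam114a1 (r = 0.84). The mean pattern rests largely on diabetes replicate 4, which stood at 1.14, whereas the other libraries ran from -0.67 to 0.14. These correlations over 12 libraries, which share their group structure and depth differences, are a description.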

How the data were processed

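The authors deposited 1 table of raw counts for 12 libraries. Per the labels' protocols, RNA (integrity number above 7) went into stranded poly-A libraries sequenced as paired reads of 150 bases. FastQC, featureCounts and GRCm39 were used, per the submitters' processing notes; for the aligner, annotation, strand setting and multimapping rule, the step is not given in the sources used here. Of 78334 Ensembl IDs, 51486 had a symbol in GENCODE M21 (GRCm38), which also gave transcript lengths (85.6% of tested genes). No column was left unused. Genes passing filterByExpr by group (25562) were scaled by TMM, and all 12 libraries were fitted together with edgeR 4.0.16 (glmQLFit, glmQLFTest; R 4.3.3), with Benjamini-Hochberg adjustment over all genes and a threshold of 0.05. The common dispersion was 0.653. No pair of libraries agreed within sampling noise (chi-square per degree of freedom at least 20.0). Alternatives used DESeq2 1.42.0, limma 3.58.1 (voom), other scaling, filters and covariates, and omission of libraries. A length correction (loess, span 0.5) was added after seeing the data. In simulated data the test recovered 14, 62, 78 and 86% of 2, 4, 8 and 16 fold changes for diabetes against control over 23549 genes. All 10 members are named, plus, of each pathway list, passing genes or otherwise the 3 of highest mean CPM, and 8 genes by likeness (mean of at least 1 CPM). Members and lists were chosen with earlier results of these data known. Some genes that this rule names are left out.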

Additional observations from a re-analysis of the deposited data

Results flagged for a closer look

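Among 29 values examined in the 4 diabetes libraries (the 10 members and the summed marker and pathway lists), 5 had a library far from the other 3 by Dixon's test (the gap to the nearest library over the whole range), which chance gives in about 1 of 20 groups. Tyrobp was at 27.4 CPM in diabetes replicate 4, whereas the other 3 lay between 15.8 and 16.4 CPM. The same library stood apart for the border macrophage markers (19.5 CPM), the red blood cell markers (1755 CPM) and the pituitary markers (866 CPM). Diabetes replicate 2 stood apart for the astrocyte markers, at 2962 CPM. Groups of 2 or 3 libraries were not examined in this way.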

How the results depend on the processing

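The count of members past the threshold, 0 in each of 5 comparisons, moved in 2. In diabetes against control DESeq2 called 1 (C1qc). For curcumin against diabetes no filter on low counts gave 1 (C1qa, adjusted p = 0.0377), omission of diabetes replicate 4 and curcumin replicate 2 together gave 1 (C1qa, -1.24, adjusted p = 0.0298), and omission of single libraries gave 0 to 2, the 2 without curcumin replicate 2. Over all genes diabetes against control gave 4 calls by edgeR, 41 by limma-voom and 630 by DESeq2, curcumin against diabetes 23, 329 and 1445, and 1975 without curcumin replicate 2, and garlic extract against diabetes 0, 19 and 489. Directions of the members held in 97 of 100 values under other settings for diabetes against control, 95 of 100 for curcumin and 98 of 100 for garlic extract against diabetes, and 92 of 100 for each treatment against control. The causes were not tested. Signs turned in a few values. For diabetes against control these were Csf1r 0.21 (length correction), Tmem119 0.21 (covariate for detected genes) and Aif1 0.051 (without the 2 doubted libraries). For curcumin against diabetes they were Csf1r -0.016 and Aif1 0.13 (length correction), Tmem119 0.21 (replicate block) and 0.12 (without the 2), and Aif1 0.047 (limma-voom). For garlic extract against diabetes they were Csf1r -0.12 (length correction) and Tmem119 -0.15 (covariate). For curcumin against control they were P2ry12 -0.0071 (limma-voom) and -0.58 (covariate), Tyrobp -0.0029 (no filter), -0.15 (limma-voom), -0.059 (replicate block) and -0.20 (without the 2), C1qb -0.16 and C1qc -0.063 (without the 2). For garlic extract against control they were Csf1r -0.036 (replicate block), Trem2 0.0087 (no filter), 0.19 (replicate block), 0.013 (length correction), 0.0061 (without the 2) and 0.0048 (only the groups compared), C1qb -0.15 and C1qc -0.10 (covariate). With single libraries left out, diabetes against control ran from -0.62 to 0.22 for Aif1, -0.24 to 0.038 for Csf1r and -0.41 to 0.079 for Tmem119. Curcumin against diabetes ran from -0.79 to 0.039 for Aif1 and -0.33 to 0.16 for Tmem119, and garlic extract against diabetes from -0.13 to 0.58 for Csf1r. Curcumin against control ran from -0.19 to 0.32 for C1qb, -0.086 to 0.21 for C1qc, -0.016 to 0.27 for Csf1r, -0.35 to 0.27 for P2ry12 and -0.23 to 0.38 for Tyrobp. Garlic extract against control ran from -0.11 to 0.18 for C1qb, -0.099 to 0.16 for C1qc, -0.26 to 0.44 for Csf1r, -0.075 to 0.37 for Cx3cr1, -0.22 to 0.17 for Trem2 and -0.26 to 0.0041 for Tyrobp. Libraries with the same number deviated together only weakly (r = -0.18 to 0.25, over 0.1 in 4 of 15 pairs; 5 of 12 libraries matched best with their own number), and the labels do not say that the numbers pair them. With the replicate block 0 members were called in each of the 5 comparisons, and Trem2 with garlic extract against diabetes stood at -0.099. The members had 42 to 1938 counts per library. Over all genes tested, not the members alone, the biological coefficient of variation (the square root of the common dispersion) was 0.808.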
